A study of Sus scrofa with 7 samples.

Results

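Genes for ion channels and neurotransmitter receptors were followed across porcine extra-embryonic endoderm (pXEN) cells, naïve-like ESCs (nESCs) and primed ESCs (pESCs). They were taken by the family name in their symbol and are the subunits of GABA-A receptors (GABR), glycine receptors (GLR), ionotropic glutamate receptors (GRIA, GRIK and GRIN), metabotropic glutamate receptors (GRM), nicotinic acetylcholine receptors (CHRN), potassium channels (KCN), sodium channels (SCN), calcium channels (CACN) and HCN channels. Of the 29510 rows listed, 156 carried such a symbol, and 155 symbols were distinct because CHRNA1 stands on 2 rows. RNA-seq was done on 3 pXEN lines at passages 26, 26 and 23, on 2 nESC lines at passages 21 and 22 and on 2 pESC lines, both at passage 20. There was 1 library per line. The pXEN lines came from inner cell masses of parthenogenetic blastocysts and were kept on mouse embryonic fibroblasts with LIF, CHIR99021, (S)-(+)-dimethindene maleate, minocycline hydrochloride and Y27632. The nESC lines were also grown on mouse embryonic fibroblasts, with FGF, LIF, PD0325901, CHIR99021, SB431542 and doxycycline. The pESC lines, which the labels describe as converted from naïve-like ESCs, were grown on STO mouse feeder cells with activin A, bFGF, EGF and LIF. LIF and a mouse feeder layer were therefore common to every line. The medium changed with the cell type in every comparison and the feeder layer in those with pESCs, so these cannot be told apart from cell type.

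Ion channels are membrane proteins that let ions run down their gradients. Most are built from several subunits, of which some line the pore and others, the auxiliary subunits, change its gating or carry it to the membrane. Transmitter receptors of the GABA-A, glycine, nicotinic and ionotropic glutamate types are channels opened by their ligand, and the metabotropic glutamate receptors act through G proteins. Potassium channels set the resting potential in nearly all cells and serve ion transport in epithelia, whereas many receptor and calcium channel subunits are known mainly from neurons and muscle. A transcript of 1 subunit does not show that a channel was assembled, and no current was measured here.

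The total count on genes ran from 10408164 to 12995720 in a library, and 3 counts, taken as the floor of detection, correspond to 0.231 to 0.288 CPM. This floor covers counting error only. The channel and receptor genes took 4422 to 5609 counts in a pXEN library (0.0351% to 0.0491% of its total), 8342 to 9896 in an nESC library and 9134 to 10072 in a pESC library. The labels of the cell types were compared with marker genes. Of the 8 pXEN markers, 7 were higher in pXEN cells than in both ESC types, and their summed level was 876 to 1109 FPKM in pXEN lines, 12.8 to 12.9 in nESC lines and 17.3 to 19.3 in pESC lines. The 7 listed rows of the pluripotency markers did not follow the labels as a whole. SOX2 had 0, 1.98 and 0 FPKM in the pXEN lines, 102 and 126 in the nESC lines and 147 and 154 in the pESC lines. The NANOG row was highest in pXEN cells, with 15.5, 4.5 and 13 FPKM there, 0 and 0.148 in the nESC lines and 1.43 and 1.41 in the pESC lines, and both differences passed the test (adjusted p = 0.000405 and 0.00556, edgeR). The paper reported the opposite for NANOG, present in nESCs and absent from pXEN cells, by immunofluorescence, real-time PCR and Western blotting. TDGF1 had 17.7, 16.9 and 23.8 FPKM in the pXEN lines, 0 and 0 in the nESC lines and 41 and 41.4 in the pESC lines. The row of POU5F1, a defining pluripotency gene, and that of PRDM14 stood at no more than 0.284 FPKM in any of the 7 libraries, and ZFP42 and DPPA4 were at 0 throughout. Whether these rows and that of NANOG capture their genes in Sscrofa10.2 was not tested, so their values do not show that a gene was silent or expressed. Line 2 of the pXEN cells stood apart from lines 1 and 3. It differed from them by a chi-square per degree of freedom of 29.9 and 36.0, against 6.04 between lines 1 and 3. Line 2 also had the highest level of COL1A1 (16.1, 144 and 14.8 FPKM in lines 1, 2 and 3) and COL3A1 (0.426, 77.5 and 3.87 FPKM), 2 of the fibroblast markers listed. The 9 listed rows of these markers summed to 18 to 249 FPKM in the pXEN lines, 34.8 to 37.2 in the nESC lines and 112 to 156 in the pESC lines. In pESCs they were led by S100A4, with 0.474, 2.23 and 0.637 FPKM in the pXEN lines, 4.14 and 0.999 in the nESC lines and 54 and 67.6 in the pESC lines, and DCN, with 0.068, 1.4 and 0.366, 0 and 0 and 18.3 and 38.8 FPKM. LUM was at no more than 0.0228 FPKM in any ESC line. Of the 8 fibroblast markers tested, 2 were called higher and 0 lower in pESCs than in nESCs. In pXEN cells 3 were higher and 1 lower than in nESCs, and 1 was higher and 3 lower than in pESCs.

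Few of these genes were on in any of the lines. A gene was called on in a cell type where every line had at least 1 FPKM (fragments scaled by gene length and library total, so that genes can be compared) and at least 10 counts, and at the floor where no line had more than 3 counts. On this rule 25 of the 156 genes (16.0%) were on in pXEN cells, 33 (21.2%) in nESCs and 39 (25%) in pESCs, against 52.0%, 51.4% and 54.6% of all protein-coding genes. Another 77, 63 and 49 were at the floor, and the rest were low or differed between lines. Over the 3 cell types, 59 genes were on in at least 1, 97 were on in none, 34 were at the floor in all 3 and 16 had no count in any library. Levels were modest. The genes that were on had a median of 3.46 FPKM in pXEN cells, 3.55 in nESCs and 3.63 in pESCs, while protein-coding genes that were on had 14.1, 12.6 and 12.5.

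The cell types held different sets. Of the 59 genes, 10 were on in all 3 types, 13 in both ESC types, 3 in pXEN cells and nESCs and 2 in pXEN cells and pESCs. Another 10 were on in pXEN cells alone, 7 in nESCs alone and 14 in pESCs alone. On in 1 type and at the floor in both others was a stricter pattern. It held for KCNJ16 in pXEN cells, for CACNA1A and GABRB2 in nESCs, and for KCNN4, CACNA1S, KCNJ5 and KCNIP1 in pESCs. The fibroblast markers given above were also higher in pESCs than in nESCs in sum, and their part in the genes on in pESCs alone was not tested.

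**Figure D1:**
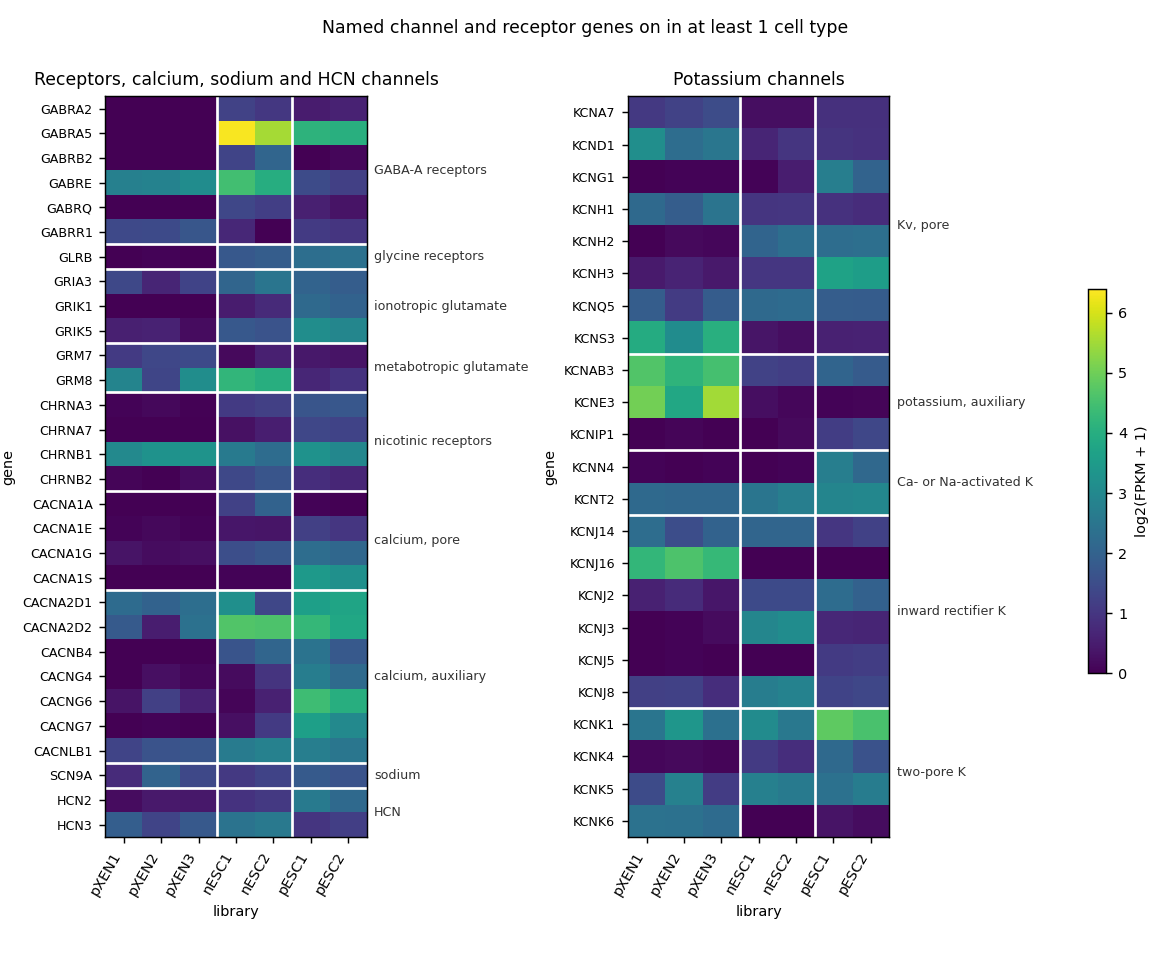
Level of 53 of the genes that were on in at least 1 cell type, those named in the text, as log2(FPKM + 1), with a column for each of the 7 libraries and a row for each gene, grouped by family and parted by white lines. Bright cells in the pXEN columns are mostly potassium channel genes, while GABRA5 and CACNA2D2 are bright in both ESC types.

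**Figure D2:**
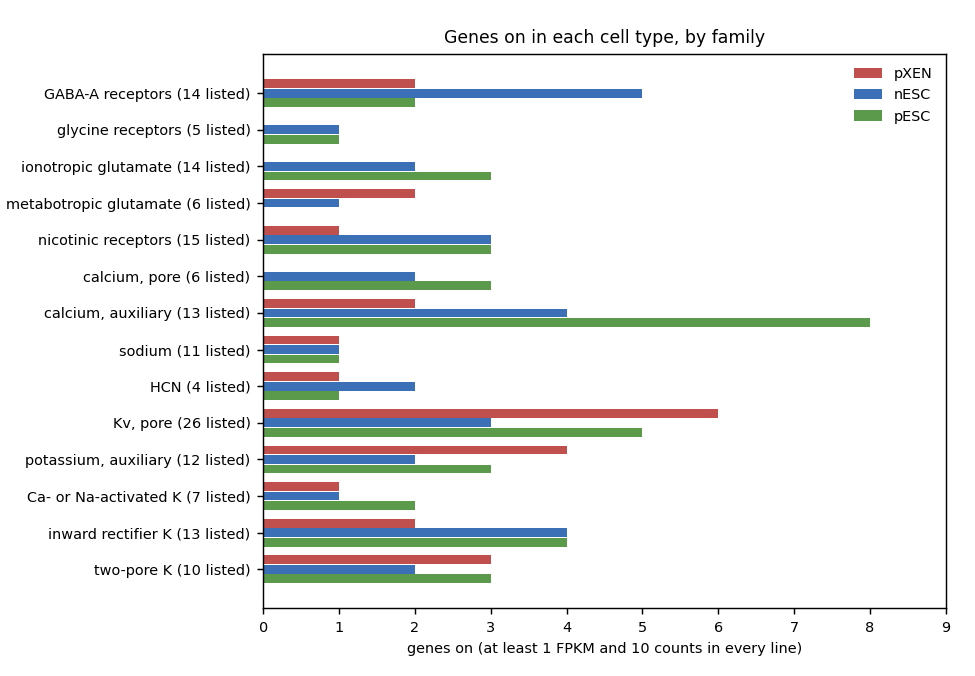
Number of genes on in pXEN cells, nESCs and pESCs (bars, from 0) for each of 14 families, with the number listed in brackets. GABA-A receptor genes were on most often in nESCs (5 of 14), calcium channel auxiliary subunits in pESCs (8 of 13) and voltage-gated potassium channel genes in pXEN cells (6 of 26).

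Counts were compared between the cell types with edgeR's quasi-likelihood test, fitted over 17447 genes of all 7 libraries with Benjamini-Hochberg adjustment. The filter on low counts kept 93 of the 156 genes and left 63 untested. Since a gene can pass the filter through the cell type where it is high, the counts below describe the genes tested and not the whole list. Against nESCs, 19 of the 93 were higher in pXEN cells, where 28.3% of all genes tested were higher, and 45 were lower, where 26.2% of all genes were lower. Their median log2 fold change was −1.46, and that of all genes 0.00. With genes at 0 counts in 1 cell type set to their lower bound the median was −1.23. Against pESCs, 19 were higher in pXEN cells (23.9% of all genes) and 46 were lower (24.4%), with a median of −1.42, against −0.01 over all genes. Between the ESC types, 24 were higher in pESCs than in nESCs (19.0% of all genes) and 17 were lower (13.3%), with a median of 0.53, or 0.35 at the bounds, against 0.01 over all genes. Calls in either direction made up 54.5%, 48.3% and 32.2% of all genes tested in the 3 comparisons. The share of genes higher in pXEN cells was thus below the share among all genes in both comparisons, and the share lower was above it, but the first did not hold against pESCs for genes with at least 10 counts in every library. The 3 comparisons share libraries and are not independent of each other. At that minimum 27 of the genes were left. Against nESCs 5 were higher (18.5%, against 28% of all genes so filtered) and 12 lower (44.4%, against 26.3%), and against pESCs 9 were higher (33.3%, against 23.6%) and 9 lower (33.3%, against 22.4%). Leaving out an ESC line lowered the calls between the ESC types, among these genes and over all genes. Without nESC line 1, 13 were higher and 9 lower in pESCs (11.1% and 6.1% of all genes), and without nESC line 2, 13 and 7 (13.1% and 7.3%). Without pESC line 1 the counts were 10 and 7 (11.2% and 5.11% of all genes), and without pESC line 2 they were 13 and 6 (11.1% and 5.17%). The 19 genes higher in pXEN cells than in pESCs became 12 without pESC line 1 (14.7% of all genes) and 9 without pESC line 2 (14.9%). The libraries of the 2 groups did not overlap for 69, 73 and 76 of the 93 genes, in the order above, which was true of 70.9%, 68.1% and 72.5% of all genes. As these are bulk samples, fewer cells expressing a gene and less RNA per cell cannot be told apart.

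**Figure D3:**
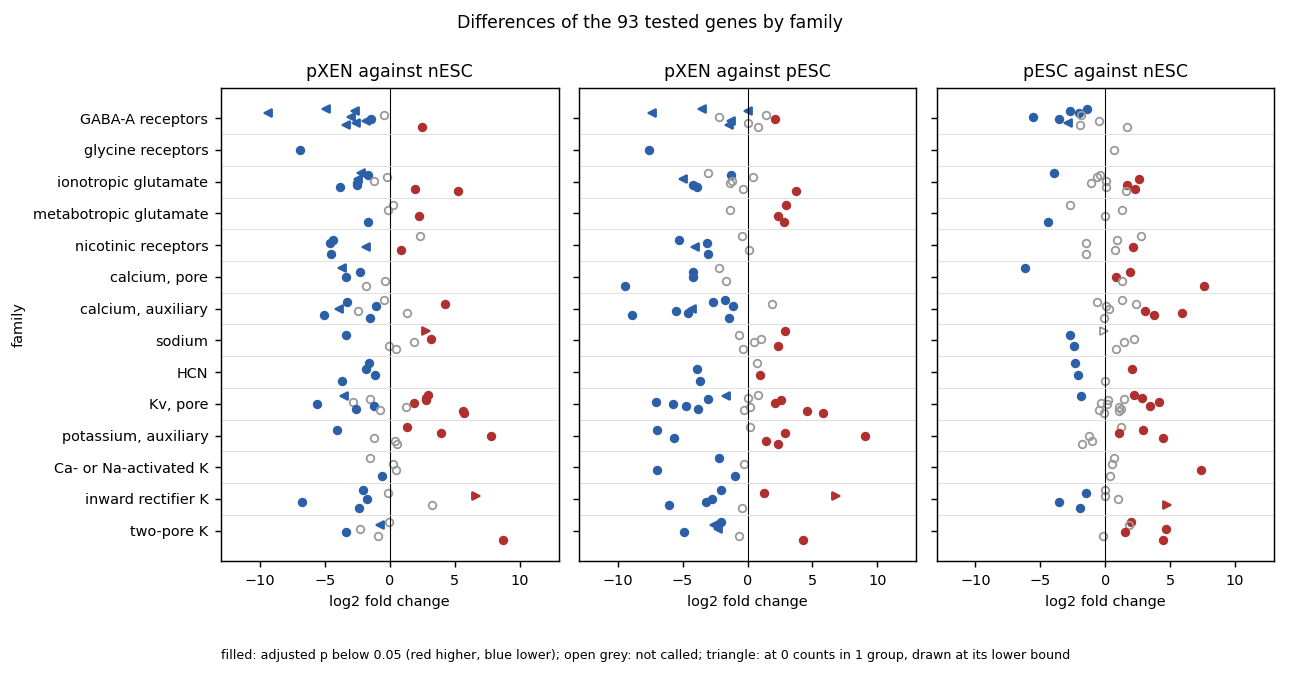
Log2 fold change of the 93 tested genes in each of the 3 comparisons, by family, with each point a gene. Filled red and blue points were called higher and lower by edgeR's quasi-likelihood test, open grey points were not called, and triangles mark genes at 0 counts in 1 group, drawn at their lower bound. Receptor and calcium channel points lie mostly on the lower side in pXEN cells, and potassium channel points on both sides.

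Calls were also counted by kind of channel, beside the shares of all genes given above (28.3% higher and 26.2% lower against nESCs, 23.9% and 24.4% against pESCs). Of the 54 receptor genes, 31 were tested, and in pXEN cells 5 were higher and 20 lower than in nESCs and 5 were higher and 14 lower than in pESCs. Without pESC line 2 the higher calls of GRIN3B, GRM2, GRM7 and GRM8 against pESCs were lost. Without nESC line 2 those of CHRNB1 and GABRR1 against nESCs were lost. Some lower calls were lost in these fits as well, such as that of GRIA3 in both, and all these genes kept their direction. Of the 19 calcium channel genes, 14 were tested, of which 1 was higher and 8 were lower than in nESCs, and 0 were higher and 11 were lower than in pESCs. Of the 68 potassium channel genes, 38 were tested, of which 11 were higher and 12 lower than in nESCs, and 11 were higher and 19 lower than in pESCs. The median log2 fold changes of the tested genes against nESCs and pESCs were −2.51 and −1.38 for receptors, −2.06 and −3.44 for calcium channels and −0.37 and −0.81 for potassium channels. Summed over the genes of a group, the level of the potassium channel genes was 135, 108 and 143 FPKM in pXEN lines 1, 2 and 3, 58.3 and 59.9 in the nESC lines and 106 and 89.9 in the pESC lines. That of the receptor genes was 30.8, 27.2 and 35.6 FPKM in the pXEN lines, 148 and 109 in the nESC lines and 61.4 and 54.1 in the pESC lines. The calcium channel genes summed to 9.31, 8.85 and 12.5 FPKM, 45.9 and 45.4, and 94.5 and 72.7 in the same order. In sum each group of genes was thus highest in another cell type, with no overlap between the lines for receptors and calcium channels and lines of pXEN cells and pESCs close together for potassium channels. Of the potassium sum, auxiliary subunits made up 62.3, 34.4 and 73.2 FPKM in the pXEN lines, 5.55 and 4.52 in the nESC lines and 9.47 and 7.65 in the pESC lines. Among pore-forming genes, inward rectifiers summed higher in pXEN lines than in pESC lines. Two-pore and calcium- or sodium-activated genes summed lower there, and voltage-gated genes overlapped.

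**Figure D4:**
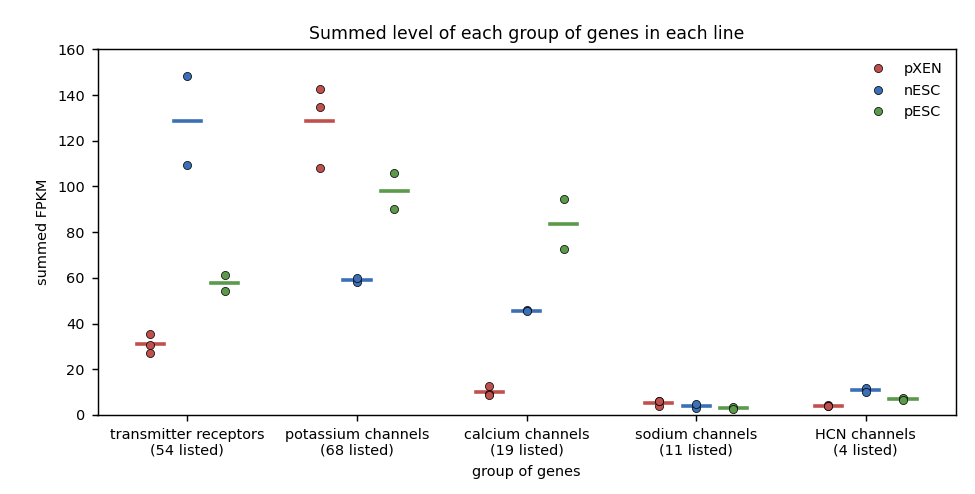
Summed FPKM of the receptor, potassium, calcium, sodium and HCN channel genes in each line (points), with the mean of a cell type as a bar. Receptor genes sum highest in nESCs, potassium channel genes with their auxiliary subunits in pXEN cells and calcium channel genes in pESCs, while sodium and HCN channel genes stay low in all lines.

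GABA-A receptors are chloride channels that carry inhibition by GABA. Their subunits were led by GABRA5 in both ESC types, with 71.0% of the summed level of the 14 GABR genes in nESCs and 76.3% in pESCs, and by GABRE in pXEN cells, with 72.9%. GABRA5, the α5 subunit found in receptors outside synapses, lies on chromosome 1 from 156791277 to 156874257 (Sscrofa10.2). No read was counted in any of the 3 pXEN lines, 80.4 and 45.7 FPKM in nESC lines 1 and 2 and 16.7 and 15.3 in pESC lines 1 and 2. The 3 cell types did not overlap. Its level was at least 659-fold lower in pXEN cells than in nESCs (adjusted p = 1.08e-05, edgeR) and at least 166-fold lower than in pESCs (adjusted p = 4.25e-05), counting 3 reads in each library as the limit. Between the ESC types it was lower in pESCs, with a log2 fold change of −1.99 (standard error, SE, 0.28; adjusted p = 0.00362).

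GABRE, the ε subunit, was on in all 3 types. It had 5.94, 6.11 and 7.71 FPKM in the pXEN lines, 21.1 and 15 in the nESC lines and 1.77 and 1.32 in the pESC lines. Levels were highest in nESCs, intermediate in pXEN cells and lowest in pESCs, without overlap. The log2 fold changes of pXEN cells were −1.46 (SE 0.23, adjusted p = 0.00105) against nESCs and 2.10 (SE 0.27, adjusted p = 0.000491) against pESCs (edgeR). Genes of microRNAs lie inside GABRE on the same strand, and their reads could count to it. GABRA2, GABRQ and GABRB2, subunits of the α, θ and β classes, had 0 counts in the 3 pXEN lines. GABRA2 had 1.38 and 1.05 FPKM in nESCs and 0.397 and 0.524 in pESCs, GABRQ had 1.57 and 1.29 and 0.477 and 0.261, and GABRB2 had 1.48 and 3.26 and 0 and 0.0784. All 3 were lower in pXEN cells than in nESCs (each at least 8.06-fold, adjusted p = 0.000111, 0.00076 and 0.00268, edgeR), with all nESC lines above all pXEN lines. Between the ESC types, GABRA2 (log2 fold change −1.41, adjusted p = 0.0446, edgeR) and GABRB2 (adjusted p = 0.0125) were called lower in pESCs. Leaving out an ESC line leaves 1 line in its type. The call of GABRA2 was then lost, at log2 fold changes of −1.20, −1.59, −1.21 and −1.62 without nESC line 1, nESC line 2, pESC line 1 and pESC line 2. That of GABRB2 was lost without nESC line 2, pESC line 1 or pESC line 2. Both genes kept their direction in these fits.

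GABRR1, the ρ1 subunit, was the only GABR gene on in pXEN cells and in no ESC type. It had 1.68, 1.71 and 2.29 FPKM in the pXEN lines, 0.649 and 0 in the nESC lines and 1.12 and 0.993 in the pESC lines. The nESC lines differed from each other, and both pESC lines lay below the lowest pXEN line. Its call against nESCs (log2 fold change 2.50, adjusted p = 0.046, edgeR) did not hold under upper-quartile scaling (adjusted p = 0.0572) and was lost without pXEN line 1, pXEN line 3, nESC line 2, pESC line 1 or pESC line 2 (adjusted p = 0.0716, 0.0906, 0.0812, 0.0843 and 0.0824). In all, 8 of the 10 tested GABR genes were lower and 1 was higher in pXEN cells than in nESCs (26.2% and 28.3% of all genes). Against pESCs 5 were lower and 1 was higher (24.4% and 23.9%), and between the ESC types 6 were lower and 0 were higher in pESCs (13.3% and 19.0%).

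Of the 5 glycine receptor genes only GLRB, the β subunit that anchors the receptor at synapses, was on. It had 0, 0.0454 and 0 FPKM in the pXEN lines, 2.37 and 2.73 in the nESC lines and 3.93 and 4.22 in the pESC lines. A single read was counted over the pXEN lines, and both ESC types lay far above it. The scaled count ratio was 158 (95% interval 27.8 to 6299) for nESCs over pXEN cells and 251 (95% interval 44.6 to 9977) for pESCs over pXEN cells (adjusted p = 5.92e-05 and 5.14e-05, edgeR). The pore-forming α subunits GLRA1, GLRA2, GLRA3 and GLRA4 were below 1 FPKM in every library and were not tested. GLRA3 reached 0.0897, 0.691 and 0 FPKM in pXEN lines 1, 2 and 3, from 1, 9 and 0 counts, and was at 0 in all 4 ESC lines.

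Ionotropic glutamate receptors are cation channels that carry fast excitation. None of their 14 genes was on in pXEN cells, 2 were on in nESCs and 3 in pESCs. GRIK5, a kainate receptor subunit, had 0.487, 0.53 and 0.159 FPKM in the pXEN lines, 2.37 and 2.13 in the nESC lines and 7.77 and 6.63 in the pESC lines. The order was pESCs, nESCs and pXEN cells, without overlap. Its log2 fold changes in pXEN cells were −2.51 (SE 0.42, adjusted p = 0.00139) against nESCs and −4.18 (SE 0.41, adjusted p = 0.000126) against pESCs, and pESCs exceeded nESCs by 1.66 (SE 0.41, adjusted p = 0.0166) (edgeR). The last call was lost without nESC line 1, nESC line 2, pESC line 1 or pESC line 2 (adjusted p = 0.0839, 0.0886, 0.103 and 0.0697). GRIK1, a kainate receptor subunit on chromosome 13, had 0 counts in the pXEN lines, 0.398 and 0.699 FPKM in the nESC lines and 3.59 and 3.06 in the pESC lines. It followed the same order. It was at least 5.31-fold and at least 31.9-fold lower in pXEN cells (adjusted p = 0.00103 and 0.000199, edgeR). GRIA3, an AMPA receptor subunit, had 1.63, 0.581 and 1.44 FPKM in the pXEN lines, 3.28 and 4.6 in the nESC lines and 3.13 and 2.73 in the pESC lines, with the lowest value in pXEN line 2. All ESC lines lay above all pXEN lines. Its log2 fold changes in pXEN cells were −1.71 (adjusted p = 0.00739) against nESCs, lost without nESC line 2 (adjusted p = 0.0603), and −1.26 (adjusted p = 0.0316) against pESCs, lost without pESC line 1 or pESC line 2 (adjusted p = 0.139 and 0.0945) (edgeR).

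GRIN3B, an NMDA receptor subunit that binds glycine, ran against this direction. Its values were 1.53, 1.0 and 0.99 FPKM in the pXEN lines, 0.0528 and 0 in the nESC lines and 0.152 and 0.0238 in the pESC lines. All pXEN lines lay above all ESC lines, although line 3 fell just short of 1 FPKM. The scaled count ratio to nESCs was 42.9 (95% interval 11.6 to 359) (adjusted p = 0.00224, edgeR), and the log2 fold change against pESCs was 3.71 (SE 0.81, adjusted p = 0.00621), a call lost without pESC line 2 (adjusted p = 0.0524). GRIN3B overlaps TMEM259 on the other strand, and the strand setting of the counting is not given in the sources used here.

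The metabotropic glutamate receptors were led by GRM8, which couples to inhibitory G proteins. It held 67.3% of the summed GRM level in pXEN cells, 93.1% in nESCs and 44.8% in pESCs. GRM8 had 6.4, 1.53 and 7.8 FPKM in pXEN lines 1, 2 and 3, 17.5 and 15.1 in the nESC lines and 0.601 and 0.917 in the pESC lines. Again the order was nESCs, pXEN cells and pESCs, but pXEN line 2 stood well below lines 1 and 3. The log2 fold change of pXEN cells was −1.65 (SE 0.52, adjusted p = 0.0277) against nESCs and 2.78 (SE 0.66, adjusted p = 0.00921) against pESCs (edgeR). The first call was lost without nESC line 1 or nESC line 2 (adjusted p = 0.117 and 0.0819), and the second was lost without pESC line 1 or pESC line 2 (adjusted p = 0.0806 and 0.0501). GRM7, of the same receptor class, was on in pXEN cells alone, with 1.13, 1.58 and 1.7 FPKM in the pXEN lines, 0.125 and 0.475 in the nESC lines and 0.32 and 0.262 in the pESC lines. No ESC line reached the lowest pXEN line. It was higher in pXEN cells by 2.27 (SE 0.60, adjusted p = 0.0131) and 2.33 (SE 0.60, adjusted p = 0.0133) on the log2 scale (edgeR). The first of these calls was lost without nESC line 1 (adjusted p = 0.0762), and the second was lost without pESC line 1 or pESC line 2 (adjusted p = 0.0785 and 0.103). GRM7 lies on chromosome 13, where the median over all tested genes was itself 0.46 and 0.40 in these comparisons. GRM2 was higher than in pESCs (log2 fold change 3.00, adjusted p = 0.021) but not called against nESCs (0.29, adjusted p = 0.75), and its call was lost without pXEN line 1, pESC line 1 or pESC line 2 (adjusted p = 0.0552, 0.0655 and 0.144). GRM4 was called in no comparison of all 7 libraries but was lower in pXEN cells than in pESCs without pXEN line 3 (log2 fold change −3.33, adjusted p = 0.0447), and GRM6 had at most 2 counts in any library.

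Nicotinic receptors are cation channels opened by acetylcholine. CHRNB1, the β1 subunit of the muscle-type receptor, was on in all 3 types at 7.08, 8.58 and 8.68 FPKM in the pXEN lines, 5.1 and 3.77 in the nESC lines and 8.55 and 6.74 in the pESC lines, and led its family in each. Values of pXEN cells and pESCs overlapped, and both nESC lines were below them. It was higher in pXEN cells than in nESCs (log2 fold change 0.87 (SE 0.24, adjusted p = 0.0155), edgeR), a call lost without nESC line 2 (adjusted p = 0.111), and it was not called against pESCs (0.10, adjusted p = 0.758). CHRNA3 and CHRNB2, subunits of neuronal receptors, were near the floor in pXEN cells. CHRNA3 had 0.0456, 0.0976 and 0.0204 FPKM in the pXEN lines, 1.11 and 1.33 in the nESC lines and 2.24 and 2.33 in the pESC lines. CHRNB2 had 0.0708, 0.0151 and 0.159, 1.61 and 2.22 and 0.773 and 0.608 FPKM. For both genes every ESC line lay above every pXEN line, with log2 fold changes of pXEN cells of −4.41 (adjusted p = 0.000131) and −4.54 (adjusted p = 0.000396) against nESCs and −5.30 (adjusted p = 6.9e-05) and −3.05 (adjusted p = 0.00395) against pESCs (edgeR). CHRNA7, whose product forms receptors from 1 kind of subunit, had 0 counts in the pXEN lines, 0.218 and 0.452 FPKM in the nESC lines and 1.57 and 1.42 in the pESC lines. It was at least 3.65-fold lower in pXEN cells than in nESCs and at least 16.1-fold lower than in pESCs (adjusted p = 0.0027 and 0.000581, edgeR).

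Voltage-gated calcium channels open on depolarization. None of the 6 pore-forming CACNA1 genes was on in pXEN cells, 2 were on in nESCs and 3 in pESCs, with CACNA1G on in both. CACNA1S, the pore and voltage sensor of the skeletal muscle L-type channel, lies on chromosome 10 from 27935052 to 27999300. Its counts were 0, 1 and 1 in the pXEN lines, 3 and 3 in the nESC lines and 707 and 625 in the pESC lines, or 9.94 and 8.23 FPKM in the last. Both other types stood at the floor. The log2 fold change of pESCs against nESCs was 7.59 (SE 0.35, adjusted p = 9.13e-06) (edgeR), and the scaled count ratio of pESCs to pXEN cells was 821 (95% interval 227 to 6783) (adjusted p = 2.11e-06). CACNA1A, which encodes the pore of the P/Q-type channel, had 1.35 and 3.02 FPKM in the nESC lines, 0 counts in the pXEN lines and 1 and 0 counts in the pESC lines. It was the reverse case, on in nESCs and at the floor elsewhere, at least 12.9-fold lower in pXEN cells than in nESCs (adjusted p = 0.00155, edgeR). CACNA1G, the pore of a T-type channel that opens near the resting potential, was on in both ESC types. Its values were 0.255, 0.149 and 0.192 FPKM in the pXEN lines, 1.89 and 2.26 in the nESC lines and 3.87 and 3.39 in the pESC lines. The 3 types did not overlap, with log2 fold changes of pXEN cells of −3.39 (SE 0.25, adjusted p = 1.77e-05) and −4.18 (SE 0.25, adjusted p = 1.08e-05) (edgeR).

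CACNA1E, the R-type pore, was on in pESCs alone, at 1.32 and 1.01 FPKM against 0.308 and 0.295 in nESCs and no more than 0.10 in the pXEN lines, and it was higher in pESCs than in nESCs by 1.93 (SE 0.44, adjusted p = 0.0127) on the log2 scale (edgeR), a call lost without nESC line 1, nESC line 2, pESC line 1 or pESC line 2 (adjusted p = 0.074, 0.0659, 0.0948 and 0.0503). CACNA1F and CACNA1I stayed below 1 FPKM in every library.

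Among the auxiliary subunits, 3 of the 7 γ genes, CACNG6, CACNG7 and CACNG4, were on in pESCs alone. CACNG6, on chromosome 6 from 53065418 to 53085267, had 0.253, 1.3 and 0.53 FPKM in the pXEN lines, 0.0686 and 0.498 in the nESC lines and 20.2 and 15.2 in the pESC lines. CACNG7, a neighbour among the listed genes at 38.5 kb, had 0, 0.041 and 0, 0.194 and 1.13 and 11.2 and 7.1 FPKM. CACNG4 had 0, 0.203 and 0.0798, 0.145 and 0.951 and 5.54 and 3.62 FPKM. For each of the 3 genes both pESC lines lay above all 5 other lines. The proteins of CACNG4 and CACNG7 are known for carrying AMPA receptors to the membrane as well. The log2 fold change of pESCs against nESCs was 5.92 (SE 0.79, adjusted p = 0.00116) for CACNG6, 3.77 (SE 0.70, adjusted p = 0.00527) for CACNG7 and 3.05 (SE 0.87, adjusted p = 0.0309) for CACNG4 (edgeR). The call of CACNG4 was lost without nESC line 1, pESC line 1 or pESC line 2 (adjusted p = 0.128, 0.157 and 0.0858). Against pESCs the log2 fold change of pXEN cells was −4.62 (adjusted p = 0.000523) for CACNG6 and −5.49 (adjusted p = 0.00165) for CACNG4, and the scaled count ratio of pESCs to pXEN cells for CACNG7 was 619.8 (95% interval 111 to 24529). The other 4 γ genes were not tested. Of these, CACNG5 had 0, 0.596 and 0 FPKM in the pXEN lines, 0.452 and 1.76 in the nESC lines and 0.76 and 0 in the pESC lines, and CACNG1, CACNG2 and CACNG3 were at the floor in all 3 types.

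The α2δ subunits bring the pore to the cell surface. CACNA2D2 was the highest calcium channel gene in nESCs, with 24.5 and 23.4 FPKM in the nESC lines and 18.1 and 13 in the pESC lines. Its pXEN values were 2.51, 0.434 and 4.27 FPKM in lines 1, 2 and 3, lowest in line 2 and below all ESC lines. Its log2 fold changes in pXEN cells were −3.33 (SE 0.62, adjusted p = 0.00255) against nESCs and −2.69 (SE 0.62, adjusted p = 0.00794) against pESCs (edgeR), although chromosome 13 as a whole had medians of 0.46 and 0.40. The second call was lost without pESC line 1 (adjusted p = 0.0534). CACNA2D1 had 3.71, 3.04 and 4.01 FPKM in the pXEN lines, 8.04 and 1.56 in the nESC lines and 11.3 and 12.4 in the pESC lines. The nESC lines stood on either side of the pXEN lines. It was not called against nESCs (log2 fold change −0.43, adjusted p = 0.523, edgeR), and without nESC line 1 the direction turned (1.18, adjusted p = 0.00894), while without nESC line 2 it was lower (−1.19, adjusted p = 0.00404). CACNLB1, listed as the β1 subunit of L-type channels, had 1.47, 2.09 and 2.21 FPKM in the pXEN lines, 5.28 and 6.0 in the nESC lines and 5.68 and 4.7 in the pESC lines. Its ESC lines overlapped each other and lay above the pXEN lines, with log2 fold changes of pXEN cells of −1.55 (adjusted p = 0.000687) and −1.42 (adjusted p = 0.00135) (edgeR). CACNB4, another β subunit, had 0 counts in the pXEN lines, 2.18 and 3.25 FPKM in the nESC lines and 4.44 and 2.44 in the pESC lines.

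Of the 11 sodium channel genes, 6 were tested. SCN9A, a pore-forming subunit known from pain-sensing neurons, had 0.72, 3.08 and 1.63 FPKM in the pXEN lines, 1.1 and 1.43 in the nESC lines and 2.48 and 2.13 in the pESC lines. Its pXEN lines spanned the values of all the ESC lines, and it was called in no comparison. SCN8A, a pore-forming subunit of central neurons, had 1.44, 0.835 and 2.04, 0.939 and 2.01 and 0.348 and 0.205 FPKM, and was lower in pESCs than in both other types (log2 fold change of pXEN cells against pESCs 2.38, adjusted p = 0.00716, and of pESCs against nESCs −2.42, adjusted p = 0.0132, edgeR). The first of these calls was lost without pESC line 2 (adjusted p = 0.0676), and the second was lost without nESC line 2, pESC line 1 or pESC line 2 (adjusted p = 0.0835, 0.0526 and 0.0998).

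HCN channels pass a depolarizing current on hyperpolarization and are known as pacemakers of heart and brain. HCN3 had 2.76, 1.48 and 2.43 FPKM in the pXEN lines, 4.41 and 5.05 in the nESC lines and 0.975 and 1.26 in the pESC lines. HCN2 had 0.155, 0.353 and 0.323, 0.921 and 1.09 and 5.15 and 3.54 FPKM. HCN3 was thus highest in nESCs and HCN2 in pESCs, without overlap with the other lines. HCN4 was below 1 FPKM in every library. Against nESCs the log2 fold changes of pXEN cells were −1.83 (adjusted p = 0.00864) for HCN2, −1.10 (adjusted p = 0.0189) for HCN3 and −3.69 (adjusted p = 0.00663) for HCN4 (edgeR). The call of HCN3 was lost without nESC line 1 or nESC line 2 (adjusted p = 0.0547 and 0.0993). Its call as higher than in pESCs (log2 fold change 0.99, adjusted p = 0.0442) did not hold under upper-quartile scaling (adjusted p = 0.0602), with DESeq2 (adjusted p = 0.0533) or without each of 6 lines in turn (adjusted p = 0.0674 to 0.232). HCN3 overlaps CLK2 on the other strand.

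Potassium channels held the highest levels in pXEN cells, and auxiliary subunits led them. KCNE3, a small β subunit that keeps the KCNQ1 channel of epithelia open, lies on chromosome 9 from 9649248 to 9660143. Its level was 31.6, 13.2 and 45 FPKM in pXEN lines 1, 2 and 3, 0.185 and 0.0769 in the nESC lines and 0.0356 and 0.0667 in the pESC lines. It was the highest of the 156 genes in pXEN cells (29.9 ± 15.9, SD, n = 3), lowest there in line 2, and near the floor in all ESC lines. The log2 fold change against nESCs was 7.76 (SE 0.75, adjusted p = 7.76e-05) (edgeR), and the scaled count ratio to pESCs was 576 (95% interval 197 to 2796) (adjusted p = 9.02e-05). KCNAB3, a cytoplasmic β subunit of Kv1 channels on chromosome 12, was on in all 3 types with 24.4, 16.8 and 21.9 FPKM in the pXEN lines, 1.39 and 1.27 in the nESC lines and 3.19 and 2.56 in the pESC lines. There was no overlap. It was higher in pXEN cells than in nESCs by 3.97 (SE 0.22, adjusted p = 5.49e-06) and than in pESCs by 2.88 (SE 0.21, adjusted p = 2.82e-05) on the log2 scale (edgeR).

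KCNJ16 encodes Kir5.1, an inward rectifier subunit that works in pairs with other Kir subunits and is known from kidney. It lies on the unplaced scaffold JH118414.1 from 131028 to 132287. Its counts were 223, 338 and 257 in the pXEN lines, or 18, 23.3 and 18.5 FPKM, and 0 in all 4 ESC lines. None of the other genes among the 156 was on in pXEN cells and at the floor in both ESC types. The level in pXEN cells was at least 99.4-fold that in nESCs and at least 109.9-fold that in pESCs (adjusted p = 2.54e-05 and 3.8e-05, edgeR). KCNJ2, which encodes the inward rectifier Kir2.1 and lies 37.4 kb from KCNJ16 on that scaffold, went the other way, with 0.501, 0.715 and 0.299 FPKM in the pXEN lines, 1.69 and 1.69 in the nESC lines and 3.78 and 2.99 in the pESC lines. The log2 fold changes of KCNJ2 in pXEN cells were −1.73 (adjusted p = 0.0128) against nESCs and −2.71 (adjusted p = 0.00155) against pESCs (edgeR), and the first call was lost without nESC line 1 (adjusted p = 0.0539).

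Of the pore-forming voltage-gated potassium channels, KCNS3 and KCND1 led in pXEN cells. KCNS3, a silent subunit that modifies Kv2 channels, had 14.2, 7.68 and 15.6 FPKM in the pXEN lines, 0.289 and 0.18 in the nESC lines and 0.50 and 0.52 in the pESC lines. KCND1, the pore of an A-type current, had 7.92, 3.88 and 4.67, 0.592 and 0.966 and 0.935 and 0.876 FPKM. KCNH1, the ether-à-go-go channel, had 3.58, 2.72 and 4.54, 0.989 and 1.03 and 0.897 and 0.741 FPKM. All pXEN lines lay above all ESC lines for each of the 3 genes. KCNH1 lies on chromosome 13, with the raised median given for GRM7. Against nESCs the log2 fold changes were 5.68 (SE 0.49, adjusted p = 4.17e-05) for KCNS3, 2.80 (SE 0.44, adjusted p = 0.0010) for KCND1 and 1.83 (SE 0.38, adjusted p = 0.00432) for KCNH1 (edgeR). Against pESCs they were 4.60 (SE 0.43, adjusted p = 0.000105), 2.60 (SE 0.43, adjusted p = 0.00162) and 2.14 (SE 0.39, adjusted p = 0.00263) in the same order. KCNK6, the two-pore channel TWIK-2 that carries a background potassium current, had 4.32, 4.22 and 3.69 FPKM in the pXEN lines, 0 and 0.0157 in the nESC lines and 0.262 and 0.163 in the pESC lines. Its pXEN lines were close to each other and far from the rest. The scaled count ratio to nESCs was 527 (95% interval 94.2 to 20833) (adjusted p = 8.11e-06, edgeR), and the log2 fold change against pESCs was 4.26 (SE 0.35, adjusted p = 5.03e-05).

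KCNA7, the pore of a Kv1 channel, was on in pXEN cells and low in nESCs. KCNA7 had 1.07, 1.41 and 1.79 FPKM in the pXEN lines, 0.174 and 0.181 in the nESC lines and 0.837 and 0.836 in the pESC lines. All pXEN lines lay above all ESC lines. It was higher in pXEN cells than in nESCs (log2 fold change 2.95, adjusted p = 0.00221, edgeR) and was not called against pESCs (0.77, adjusted p = 0.181).

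**Figure D5:**
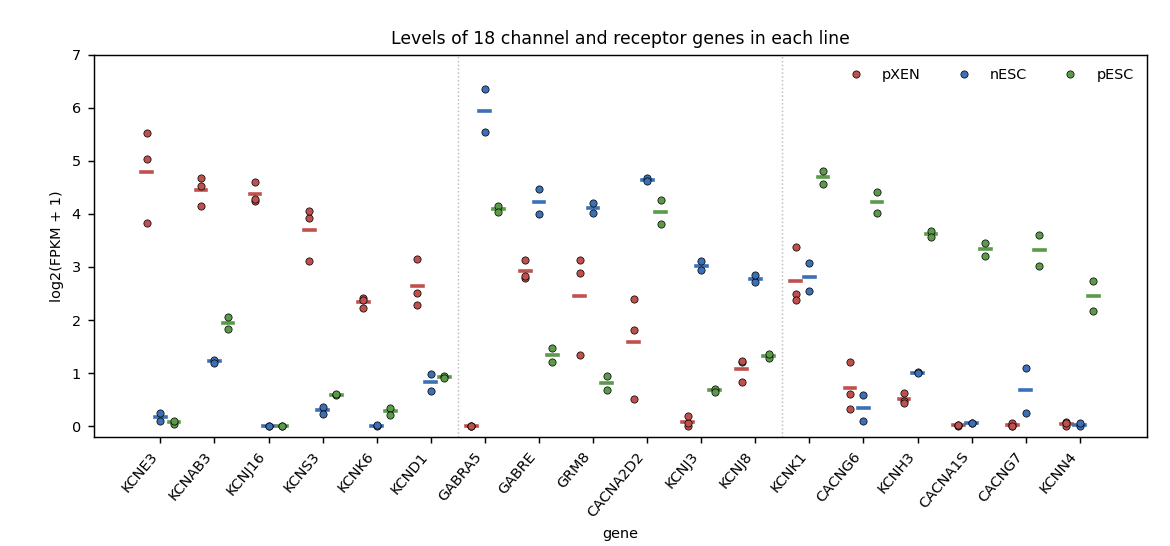
Level of 18 genes in each line (points), as log2(FPKM + 1), with the mean of these log values in each cell type as a bar. The 6 genes on the left are highest in pXEN cells, the 6 in the middle in nESCs and the 6 on the right in pESCs.

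Other potassium channels were highest in ESCs. KCNH2, the hERG channel that repolarizes the heart, had 0, 0.117 and 0.0817 FPKM in the pXEN lines, 3.15 and 3.96 in the nESC lines and 3.91 and 4.1 in the pESC lines. The ESC lines lay together far above the pXEN lines (log2 fold changes of pXEN cells −5.60 (SE 0.55, adjusted p = 8.8e-05) and −5.76 (SE 0.55, adjusted p = 0.00011), edgeR). KCNJ3, which encodes GIRK1, a potassium channel opened by G proteins, had 0, 0.0394 and 0.144 FPKM in the pXEN lines, 6.67 and 7.6 in the nESC lines and 0.628 and 0.571 in the pESC lines. It was on in nESCs alone, at a log2 fold change of pXEN cells of −6.78 (SE 0.56, adjusted p = 3.55e-05) against them (edgeR). KCNJ5, which encodes GIRK4, a subunit known to pair with GIRK1, was instead on in pESCs alone, at 1.14 and 1.22 FPKM, with 0 counts in both nESC lines and 0, 3 and 0 in the pXEN lines. It was at least 26.5-fold higher in pESCs than in nESCs (adjusted p = 0.00261, edgeR). KCNJ8, the pore of an ATP-sensitive channel, had 1.3, 1.34 and 0.776 FPKM in the pXEN lines, 5.58 and 6.16 in the nESC lines and 1.44 and 1.58 in the pESC lines. It was highest in nESCs, and the pESC lines lay just above the pXEN lines. The fit gave pXEN cells a log2 fold change of −2.36 (SE 0.32, adjusted p = 0.000458) against nESCs (edgeR), and the gene was not called against pESCs (−0.40, adjusted p = 0.36).

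The two-pore channel KCNK1 (TWIK-1) was the highest of the list in pESCs, with 4.6, 9.33 and 4.18 FPKM in the pXEN lines, 7.43 and 4.86 in the nESC lines and 26.9 and 22.7 in the pESC lines. Lines of pXEN cells and nESCs overlapped, and both pESC lines lay above them. It was higher in pESCs than in nESCs by 2.00 (SE 0.40, adjusted p = 0.00687) on the log2 scale, and the log2 fold change of pXEN cells against pESCs was −2.02 (SE 0.35, adjusted p = 0.00202) (edgeR). The first call was lost without nESC line 2 (adjusted p = 0.0505). KCNH3, a voltage-gated channel of the forebrain, had 0.385, 0.55 and 0.345 FPKM in the pXEN lines, 1.02 and 1.0 in the nESC lines and 11.8 and 10.8 in the pESC lines, a log2 fold change of pESCs against nESCs of 3.47 (SE 0.26, adjusted p = 7.29e-05) (edgeR). The 3 types did not overlap. KCNH3 overlaps SPATS2 on the other strand. KCNN4, a calcium-activated channel of epithelia and blood cells, had 5.68 and 3.47 FPKM in the pESC lines and no more than 1 count in any other library. The scaled count ratio of pESCs was 211 (95% interval 37.4 to 8354) to nESCs and 144 (95% interval 39.3 to 1192) to pXEN cells (adjusted p = 0.000616 and 0.000147, edgeR). KCNG1 and KCNIP1, a silent Kv subunit and a calcium-binding Kv4 subunit, were on in pESCs alone as well, at 5.7 and 3.1 and 1.23 and 1.55 FPKM. Of the other two-pore genes, KCNK4, which encodes the mechanosensitive channel TRAAK, had 0.072, 0.123 and 0.0645 FPKM in the pXEN lines, 1.11 and 0.788 in the nESC lines and 3.54 and 2.05 in the pESC lines. KCNK10 and KCNK12 had 0 counts in the pXEN lines and at most 1.35 FPKM elsewhere, and KCNK2, KCNK13, KCNK15 and KCNK17 were below 1 FPKM in every library and were not tested. Of the other calcium- and sodium-activated genes, KCNN1, KCNN2, KCNN3, KCNT1 and KCNU1 were on in no cell type, with at most 1.18 FPKM in any library.

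A smaller set was on in all 3 types. KCNT2, a channel opened by sodium, was on in all lines, with 3.58, 3.43 and 3.38 FPKM in the pXEN lines, 4.64 and 5.69 in the nESC lines and 6.48 and 6.81 in the pESC lines. Its values were close within a type and rose in that order, with log2 fold changes of pXEN cells of −0.58 (SE 0.14, adjusted p = 0.00888) and −0.93 (SE 0.14, adjusted p = 0.00103) (edgeR). The first call was lost without nESC line 2 (adjusted p = 0.0694). KCNQ5, which carries an M-type current, and KCNK5, an alkaline-activated two-pore channel, were on in all 3 types and called in no comparison of all 7 libraries. KCNQ5 had 2.72, 1.15 and 2.61 FPKM in the pXEN lines, 3.55 and 3.74 in the nESC lines and 2.68 and 2.62 in the pESC lines. KCNK5 had 1.78, 5.99 and 1.2, 5.95 and 5.11 and 4.22 and 5.49 FPKM. In both genes pXEN line 2 stood apart from lines 1 and 3, below them for KCNQ5 and above them for KCNK5. The pXEN values of KCNQ5 overlapped those of the pESC lines and lay below both nESC lines, and those of KCNK5 spanned all ESC lines. Without pXEN line 2, KCNK5 was lower in pXEN cells than in nESCs (log2 fold change −1.90, adjusted p = 0.000186) and pESCs (−1.70, adjusted p = 0.000436). Without that line KCNQ5 was lower in pXEN cells than in nESCs (−0.46, adjusted p = 0.0279) and in pESCs than in nESCs (−0.47, adjusted p = 0.0326, edgeR). KCNJ14, an inward rectifier, was on in all 3 types at 3.92, 1.84 and 3.03, 3.28 and 3.24 and 1.02 and 1.35 FPKM and was lower in pESCs than in both others. The log2 fold change of pESCs against nESCs was −1.47 (adjusted p = 0.0223), a call lost without nESC line 1, nESC line 2, pESC line 1 or pESC line 2 (adjusted p = 0.085, 0.0801, 0.144 and 0.0753). That of pXEN cells against pESCs was 1.31 (adjusted p = 0.0189), a call lost without pXEN line 1, pESC line 1 or pESC line 2 (adjusted p = 0.0551, 0.135 and 0.0609) (edgeR).

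Across the comparisons of pXEN cells, 11 genes were higher than in both ESC types, 34 were lower than in both, 3 (GABRE, GRM8 and HCN3) lay between nESCs and pESCs, and 12 of those tested were called against neither. Of all genes tested, 18.1% were higher and 15.5% lower than in both ESC types. These counts rest on the same pXEN libraries. The calls that place GRM8 and HCN3 between the ESC types were lost when 1 ESC line was left out, as given above. Among the 11 were the 8 potassium channel genes KCNE3, KCNAB3, KCNJ16, KCNS3, KCND1, KCNK6, KCNH1 and KCNV1 and the receptor genes GRIN3B and GRM7. KCNV1, a silent Kv subunit, is named here after its values were seen. Its pXEN lines 1, 2 and 3 had 1.19, 0.266 and 0.626 FPKM, with no more than 0.0222 in any ESC line.

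The pXEN lines also varied among themselves. Among the 47 with a mean of at least 10 counts in pXEN cells, the highest line exceeded the lowest by a median factor of 1.82, against 1.37 for the 15161 such genes in all. Line 2 lay more than 2 times above or below both other lines for 13 of the 47 (27.7%), and lines 1 and 3 did so for 1 each. Among all such genes line 2 did so for 8.77%. Leaving line 2 out gave 19 genes higher and 48 lower against nESCs (30.2% and 29.8% of all genes), and 19 and 47 against pESCs (26.5% and 28.9%). The level of the fibroblast markers in line 2 is given above, and its part in this spread was not tested.

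Regardless of family, 66 of the genes fell into 27 groups with neighbours of the list within 1 Mb, and some groups mixed families. The neighbours KCNJ16 and KCNJ2, with opposite directions, are described above.

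Genes that act with these channels were counted from a list of 79 partners, of which 62 rows were listed and 50 tested. In pXEN cells 13 partners were higher than in nESCs and 20 were lower, and 14 were higher than in pESCs and 24 were lower. Among all genes tested these shares were 28.3% and 26.2%, and 23.9% and 24.4%. The 8 partners higher in pXEN cells than in both ESC types were ATP1B1, DLG1, GLUL, RCOR1, SLC12A2, SLC17A7, a vesicular glutamate transporter, SLC1A1, which takes up glutamate, and HOMER2, a scaffold of metabotropic glutamate receptors. SLC17A7 had 6.14, 4.8 and 8.09 FPKM in the pXEN lines, 0.108 and 0.14 in the nESC lines and 2.44 and 1.8 in the pESC lines, and SLC1A1 had 11.7, 25.1 and 8.99, 0.631 and 0.832 and 0.131 and 0.399 FPKM. HOMER2 had 106, 107 and 107, 44.3 and 35.3 and 14 and 11.4 FPKM. Other partners were highest in ESCs. FGF13, which binds sodium channels, had 0, 0.0696 and 0 FPKM in the pXEN lines, 9.93 and 8.08 in the nESC lines and 9.71 and 7.48 in the pESC lines. RIC3, a chaperone of nicotinic receptors, had 0 counts in the pXEN lines and 6.15 and 6.75 and 3.02 and 1.42 FPKM in nESC and pESC lines. GABBR1, a subunit of the metabotropic GABA-B receptor, was highest in pESCs, at 18.9 and 15 FPKM against 3.15, 1.5 and 3.66 in the pXEN lines and 0.884 and 1.46 in the nESC lines. GAD1 and GAD2, the enzymes that make GABA, stayed below 1 FPKM in every library. REST, a repressor of neuronal genes, was listed on 2 rows and was above 1 FPKM in every library on both.

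Most neural markers were lower in pXEN cells, as most called receptor and calcium channel genes were. Of 16 such markers 9 were listed and 8 tested, of which 7 were lower and 1 was higher in pXEN cells than in nESCs, and 7 were lower and 0 were higher than in pESCs. Between the ESC types 3 were higher and 2 lower in pESCs. Their summed level was 5.64 to 11.8 FPKM in the pXEN lines, 140 to 225 in the nESC lines and 538 to 544 in the pESC lines. STMN2 led with 62.3 and 113 FPKM in the nESC lines and 416 and 425 in the pESC lines, against 0, 0.142 and 0 in the pXEN lines, while NEUROD1 was at 0 in 6 of the 7 libraries. Of 5 listed trophoblast rows 3 were tested, of which 0 were higher and 1 was lower in pXEN cells than in nESCs and 3 were lower than in pESCs, and 2 were higher in pESCs than in nESCs. They summed to 1.11 to 2.17 FPKM in the pXEN lines, 1.87 to 2.76 in the nESC lines and 6.94 to 7.18 in the pESC lines, with HAND1 at 0 throughout. The 11 listed heart and skeletal muscle rows summed to 21.9 to 57 FPKM, 2.79 to 6.56 and 8.84 to 10.4 in that order. Of the 7 tested, 3 were higher and 0 lower in pXEN cells than in nESCs, 2 were higher and 2 lower than in pESCs, and 1 was higher in pESCs than in nESCs. The 5 listed endocrine rows summed to 19.4 to 40.1, 109 to 123 and 45.4 to 50.1 FPKM. The part of cells of these kinds in the channel differences was not tested.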

How the data were processed

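Total RNA of 7 lines, each with 1 library, was sequenced after depletion of ribosomal RNA with a directional kit. Per the labels and the submitters' processing notes, reads were aligned with HISAT2 2.0.5 to Sscrofa10.2 and counted per gene with featureCounts 1.5.0-p3. The authors deposited raw read counts per gene, without normalization, and FPKM, in which counts are divided by gene length and a library total. The strand setting of the counting is not given in the sources used here. Coordinates are those of the deposited tables. Total counts per library were 10408164 to 12995720, and 3 counts were taken as the floor. Intervals are at 95% and cover counting error only.

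Members were the rows whose symbol matched the families given, and members and gene lists were chosen with earlier results of these data known. Counts were compared between cell types in edgeR 4.0.16 (R 4.3.3, quasi-likelihood test, TMM, filterByExpr, a mean per cell type, all 7 libraries), with Benjamini-Hochberg adjustment over 17447 genes and calls at an adjusted p below 0.05. The biological coefficient of variation was 0.223. The procedure was tested on simulated data first. Each line is 1 library, and the pESC lines are described as converted from naïve-like ESCs without saying from which line. The lines were fitted as independent, so p-values measure the spread between these lines only. Levels and on calls used FPKM with no test. A fold against a type with 0 counts is a bound, computed from 3 counts in each library of that group, and with 1 to 3 counts a ratio with its exact interval is given.

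Genes were named by rule: up to 12 called genes per comparison and direction with the smallest adjusted p, no overlap and at least 1 FPKM in the higher type, the 10 highest per type, genes on in 1 type and at the floor in the others, the highest of each family, up to 5 that were on throughout and never called, and families of at most 10. CACNG1, CACNG2, CACNG3, CACNG4, CACNG5, CHRNA7, GABRR1, GRIA3, KCNJ2 and KCNV1 were added after their values were seen. Alternatives were other scalings, DESeq2 1.42.0, other filters, a replicate block, centring by chromosome, pairs of groups alone, each library left out, and other definitions of on. No column of the tables was left out. A few of the genes in the counts are not reported here by name.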

Additional observations from a re-analysis of the deposited data

How the results depend on the processing

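Counts of called genes are given as higher and lower. With at least 10 counts in every library, which left 27 genes tested, they were 5 and 12 for pXEN cells against nESCs, 9 and 9 against pESCs and 6 and 7 for pESCs against nESCs, so the share of higher calls against pESCs moved from 29.2% to 50%. Leaving out 1 library gave 13 to 19 and 37 to 49 against nESCs, 9 to 19 and 36 to 48 against pESCs, and 10 to 27 and 6 to 23 between the ESC types. The counts moved by over 1.5 times without pESC line 1 (12 higher against pESCs, and 10 and 7 between the ESC types), pESC line 2 (9 higher, and 13 and 6), nESC line 1 (13 and 9) and nESC line 2 (13 and 7). Over all genes the calls between the ESC types fell from 5621 to between 2984 and 3762 without 1 of these lines. CACNA2D1 against nESCs turned from −0.43 to 1.18 without nESC line 1 and stood at −1.19 without nESC line 2. With at least 2 FPKM asked, 12 genes were on in pXEN cells and 20 in nESCs, and 6 were on in pXEN cells alone. With absence taken as the floor, 1, 2 and 4 genes were on in pXEN cells, nESCs and pESCs alone. Mean FPKM or TPM as the measure, chosen after seeing the data, kept the numbers on in 1 type alone within 1.5 times.

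The other alternatives kept each count within 1.5 times. DESeq2 called 19 and 50, 18 and 45, and 21 and 14 genes in the 3 comparisons, and no filter on low counts gave 20 and 52, 20 and 51, and 24 and 16. Upper-quartile scaling gave 18 and 47, 18 and 46, and 22 and 19, and moved the median of all genes against nESCs to −0.16. Between lines of the same number, deviations from the mean of the type had correlations of −0.0089 to 0.0442. In a type with 2 lines the 2 deviations mirror each other, so these values cannot settle whether the numbers pair the lines. The replicate block gave 16 and 39, 15 and 40, and 19 and 15. Depth limits the genes under the floor, which cannot be told from absent.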

Other observations

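In a list of channels outside the families above, more genes were called higher than lower in pXEN cells. The list held 71 chloride, TRP, epithelial sodium, acid-sensing, purinergic and intracellular calcium channel genes, of which 54 rows were listed and 42 tested. It was chosen with earlier results of these data known, so its counts do not stand for such channels in general. In pXEN cells 30 of the 42 were higher than in nESCs and 4 were lower (all genes 28.3% and 26.2%), and 20 were higher and 7 lower than in pESCs (23.9% and 24.4%). The median log2 fold changes were 1.41 and 0.72. Between the ESC types, 11 were higher and 2 lower in pESCs (19.0% and 13.3%). The summed level of the list was 1123 to 1451 FPKM in the pXEN lines, 191 to 215 in the nESC lines and 368 to 388 in the pESC lines.

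CLIC6, a chloride intracellular channel gene on chromosome 13, made up most of that sum in pXEN cells, with 916, 654 and 1005 FPKM in lines 1, 2 and 3, 0.0857 and 1.87 in the nESC lines and 51.6 and 41.2 in the pESC lines. Without overlap between the types, its log2 fold change was 9.78 against nESCs and 4.22 against pESCs (adjusted p = 1.88e-05 and 0.000374, edgeR). TRPV6, a calcium uptake channel of epithelia, had 16.1, 32.8 and 12.9 FPKM in the pXEN lines, 0 counts in both nESC lines and 0.218 and 0.136 FPKM in the pESC lines. TRPV5, its close relative, had 7.39, 7.73 and 6.22, 0 and 0.126 and 0.175 and 0.0546 FPKM in the same order. Both were far above every ESC line in every pXEN line. CLCN5, a chloride and proton exchanger of endosomes, had 48.8, 59.5 and 43.4 FPKM in the pXEN lines, 2.26 and 1.97 in the nESC lines and 7.03 and 7.16 in the pESC lines (log2 fold changes 4.57 and 2.84, adjusted p = 1.89e-06 and 1.3e-05, edgeR). TRPM6, a magnesium channel of epithelia, had 5.88, 3.39 and 6.43 FPKM in the pXEN lines and no more than 0.252 in any ESC line. RYR2, a calcium release channel known from heart, had 2.86, 2.85 and 2.96 FPKM in the pXEN lines and no more than 0.227 in any ESC line. RYR1, the release channel that CACNA1S gates in skeletal muscle, was below 1 FPKM in every library, at 0.716 and 0.487 FPKM in the pESC lines, where CACNA1S was on. It was called higher in pESCs than in nESCs (log2 fold change 5.68, adjusted p = 0.000531) and lower in pXEN cells than in pESCs (−2.55, adjusted p = 0.00187, edgeR).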
